A study of Mus musculus with 6 samples.

Results

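Transcripts of neutrophils, the granule-filled phagocytes that mature in the bone marrow, were followed in RNA from mouse growth plates with and without a conditional mutation of Lkb1. The gene set was a list of 35 neutrophil genes, chosen by name with earlier results of these data known. It had 6 genes of primary granules and promyelocytes, 3 transcription factors and 12 genes of secondary and tertiary granules. It also had 11 late-stage cytosolic, surface and signalling genes and 3 subunits of the NADPH oxidase, 5 classes in all. Of the 35 genes, 33 had a probe set annotated to a single gene. Fpr1 and Fpr2, the formyl peptide receptors, had none and were not analysed here. Chi3l1 is named Chil1 below, its symbol in the RefSeq gene table. All 33 genes were among the 17020 genes tested.

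The samples were growth plate chondrocytes from the femurs and tibiae of mice at postnatal day 30, with 3 control arrays and 3 mutant arrays. Both groups had a mixed FVB, 129S6 and C57CL/6 background, as the labels spell it. The labels call the mutation conditional, and the Cre driver and the genotype of the controls are not given in the sources used here. Replicates are labelled biological, and no label ties them to separate animals. The p-values therefore reflect variation among these 6 samples, which may be technical. Stk11, the current symbol of Lkb1, had levels of 8.68, 9.08 and 9.67 in control replicates 1, 2 and 3 and of 7.39, 7.51 and 7.52 in mutant replicates 1, 2 and 3, a difference of -1.67 (SE 0.22, limma adjusted p = 0.00387). Its controls spanned 0.98, with replicate 1 the lowest and replicate 3 the highest, against a median range of 0.30 over all genes tested. Most neutrophil genes below had the same lowest and highest control. The part of blood cells in the Stk11 difference was not tested. Where its probes lie relative to the deleted part was not analysed here. The tissue label was checked on 10 chondrocyte genes, all of which were above background on all 6 arrays, with a mean level of 11.61 to 11.85 per array. Levels are log2(intensity + 1) throughout, differences are mutant minus control on that scale, and array medians lay between 82.4 and 90.5 in intensity units. The 95% point of 1035 probe sets for olfactory receptors, genes that these tissues are not known to use, served as the background and lay between 6.40 and 6.73 per array. Precision is limited by the number of arrays, 3 in each group.

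Neutrophils fill their granules in a fixed order as they mature. Promyelocytes make the primary, or azurophil, granules with myeloperoxidase and serine proteases, under the control of factors such as C/EBP alpha and GFI1. Myelocytes and metamyelocytes then make secondary and tertiary granules with lactoferrin, cathelicidin and metalloproteinases, which need C/EBP epsilon, and the nearly mature cell gains chemotactic receptors. The cells also carry calprotectin in the cytosol and the oxidase that produces superoxide. The class names used here are labels of the list and do not date the first synthesis of each gene's product. The marrow of long bones borders the growth plate, whose cartilage itself holds no blood vessels.

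Upstream sequences are shown for 4 genes: Mpo, Mmp8 and S100a9, which stand for the primary, secondary and late-stage genes and had the most negative fitted difference of their class, and Chil1, the only gene of the set that rose. Each is the 250 bases before the annotated start, read 5′ to 3′ from RefSeq on GRCm38.p6. Capitals mark matches, on either strand, to GAGGAA (the core bound by PU.1), to TTNNGNAA (a C/EBP pattern, where N is any base) or to TGTGGT (a RUNX pattern); overlapping matches were merged.
Mpo, chr11:87793534-87793783, plus strand: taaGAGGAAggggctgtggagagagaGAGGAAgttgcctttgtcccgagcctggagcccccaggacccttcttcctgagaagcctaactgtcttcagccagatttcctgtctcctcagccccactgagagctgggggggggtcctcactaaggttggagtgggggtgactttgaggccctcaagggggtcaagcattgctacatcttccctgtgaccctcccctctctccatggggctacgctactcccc
Mmp8, chr9:7558179-7558428, plus strand: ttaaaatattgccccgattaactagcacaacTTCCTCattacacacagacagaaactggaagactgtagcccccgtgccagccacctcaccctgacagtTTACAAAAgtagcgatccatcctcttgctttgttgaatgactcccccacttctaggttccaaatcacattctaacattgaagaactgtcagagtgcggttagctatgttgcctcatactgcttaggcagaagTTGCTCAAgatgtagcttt
S100a9, chr3:90695722-90695971, minus strand: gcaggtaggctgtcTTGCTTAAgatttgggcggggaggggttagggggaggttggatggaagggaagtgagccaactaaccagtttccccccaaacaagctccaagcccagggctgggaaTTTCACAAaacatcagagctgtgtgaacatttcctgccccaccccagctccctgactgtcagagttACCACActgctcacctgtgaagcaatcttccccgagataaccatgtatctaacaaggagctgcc
Chil1, chr1:134181906-134182155, plus strand: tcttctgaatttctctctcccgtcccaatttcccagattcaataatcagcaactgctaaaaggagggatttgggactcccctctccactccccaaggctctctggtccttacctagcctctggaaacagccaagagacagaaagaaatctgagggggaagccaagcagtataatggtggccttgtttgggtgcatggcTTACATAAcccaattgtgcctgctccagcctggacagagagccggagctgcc
Mpo held 2 matches to the PU.1 core and 0 to the C/EBP pattern, and S100a9 held 0 and 2. Mmp8 held 1 and 2, and Chil1 held 0 and 1. The window of Ncf1, the oxidase gene with the most negative fitted difference, is not printed. It held 0 matches to the PU.1 core, 0 to the C/EBP pattern and 0 to the RUNX pattern. Upstream windows were found for 30 of the 35 genes, 31 windows in all because Gfi1 has more than one start. The PU.1 core was present in 17 of these 31 windows, against 23.3% of 32851 windows of the same length in the whole table. The C/EBP pattern was present in 18 of 31, against 36.8%. The RUNX pattern was present in 3 of 31, against 14.0%. These matches describe letters in a window and were not tested. In gene order Prtn3 and Elane are neighbours with 0 protein-coding genes between them, as are S100a8 and S100a9, Trem1 and Trem3, and Fpr1 and Fpr2.

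Most of the neutrophil genes were lower in the mutants. Of the 33 genes measured, 27 fell, 1 rose and 5 did not pass an adjusted p of 0.05 (limma, Benjamini-Hochberg over all genes tested). Over all 17020 genes, 6.82% were called lower and 7.84% higher. The median difference was -2.71 over the 33 genes and 0.03 over all genes tested. In 29 of the 33 every mutant array was below every control array, against 16.7% of all genes. In 2 every mutant array was above every control array, against 20% of all genes, and in 2 the groups overlapped. The filter on low values removed none of the 33. Mpo, Elane, Fcnb and Olfm4 had a mutant mean below the filter line and passed it through the controls. In RNA pooled from many cells, fewer cells of a type and less RNA per cell cannot be told apart.

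**Figure D1:**
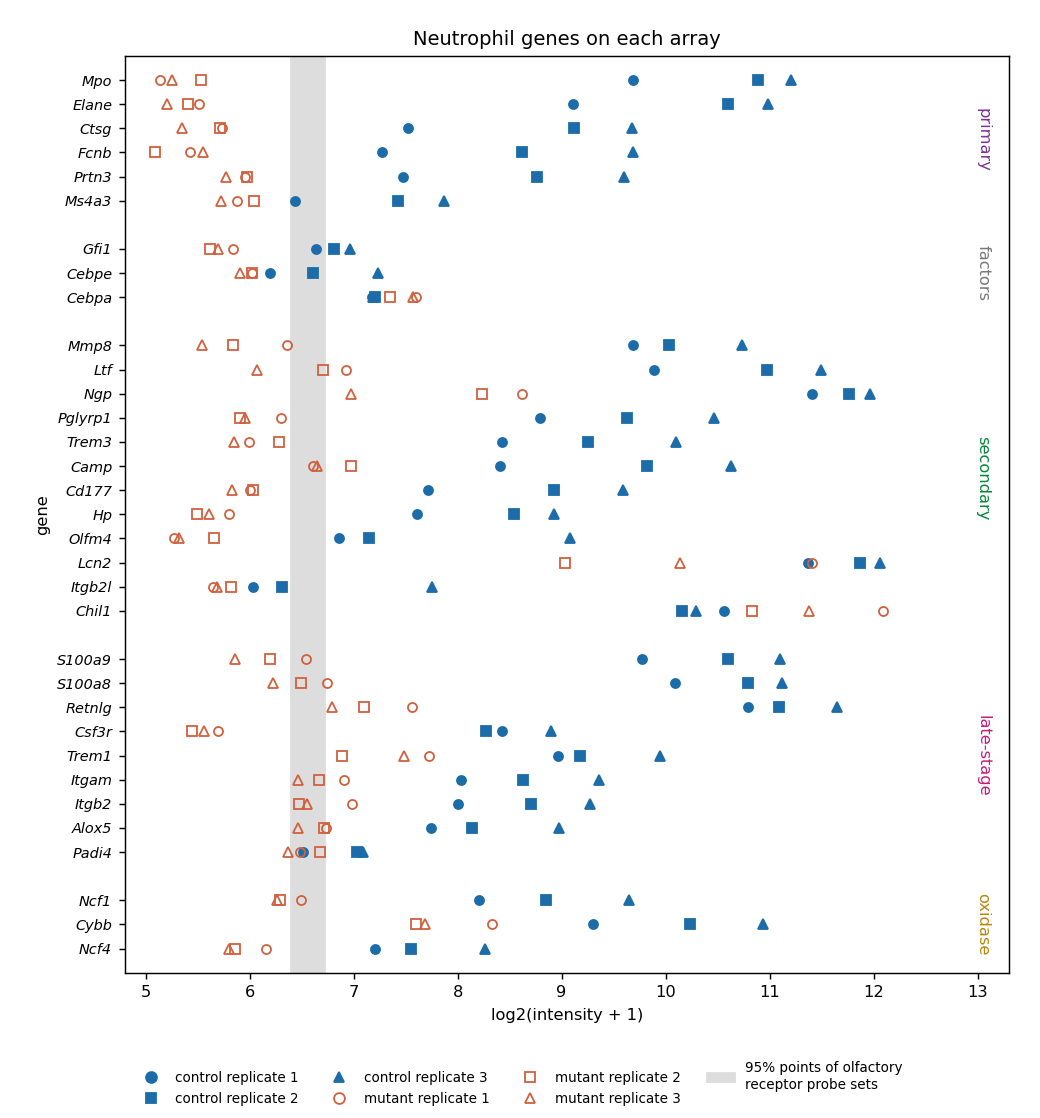
Level of each of the 33 genes on each array as log2(intensity + 1), grouped by class; filled symbols are controls, open symbols mutants, and the grey band spans the 95% points of olfactory receptor probe sets, 6.40 to 6.73. All mutant symbols of the 6 primary genes lie left of the band, while Cebpa, Lcn2 and Chil1 are among the genes that lie right of it in both groups.

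All 6 genes of primary granules and promyelocytes fell, and none was above background on any mutant array. Mpo, which encodes the myeloperoxidase that makes hypochlorous acid, had levels of 9.68, 10.89 and 11.20 in control replicates 1, 2 and 3 and of 5.13, 5.53 and 5.25 in mutant replicates 1, 2 and 3. Its difference was -5.29 (SE 0.36, n = 3 per group, limma adjusted p = 0.000337). The groups were far apart, and control replicate 1 was the lowest control. For genes at background on all mutant arrays the fitted difference is against a level that was not measured. A lower bound of the fold was therefore taken as well, with each mutant array set to no less than its background point. This bound compares group means of these arrays. It carries no sampling error and need not hold for each control array. Mpo was at least 16.2-fold lower, and such genes have no order by size.

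Elane encodes neutrophil elastase. Its levels were 9.11, 10.60 and 10.98 in the controls and 5.51, 5.41 and 5.21 in the mutants, at least 12.6-fold lower (difference -4.85, SE 0.43, limma adjusted p = 0.000793). Prtn3, the neighbouring gene for proteinase 3, stood at 7.47, 8.77 and 9.60 against 5.96, 5.98 and 5.78. Ctsg, which encodes cathepsin G, stood at 7.53, 9.12 and 9.68 against 5.73, 5.71 and 5.35. In both protease genes control replicate 1 was more than 1 log2 unit below the other controls and still above every mutant. Prtn3 was at least 4.10-fold lower (difference -2.71, limma adjusted p = 0.00913). Ctsg was at least 4.59-fold lower (difference -3.18, limma adjusted p = 0.00613).

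Fcnb encodes ficolin B, a lectin of immature myeloid cells, and had the widest spread between control arrays, from 7.28 to 9.69. In the mutants its levels were 5.43, 5.09 and 5.55, at least 3.87-fold lower (difference -3.17, SE 0.52, limma adjusted p = 0.00832). Ms4a3, a membrane protein of granulocyte and monocyte progenitors, had control levels of 6.44, 7.42 and 7.87, the lowest of them close to background, and mutant levels of 5.88, 6.04 and 5.73. By group means it was at least 1.59-fold lower (difference -1.36, limma adjusted p = 0.0311). Its lowest control was below the background points of the 3 mutant arrays, 6.49, 6.73 and 6.52. Leaving out control replicate 2, or any 1 mutant replicate, ended the call (adjusted p up to 0.114).

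Of the 3 transcription factors, 1 fell. Gfi1, a repressor needed for neutrophil rather than monocyte development, was at 6.64, 6.82 and 6.97 in the controls and 5.84, 5.62 and 5.70 in the mutants. All mutant arrays were at background, and Gfi1 was at least 1.17-fold lower (difference -1.09, SE 0.11, limma adjusted p = 0.00145). Cebpe, the factor of secondary granule genes, was above background on 2 of 3 control arrays and no mutant array. Its levels were 6.19, 6.61 and 7.24 against 6.02, 6.03 and 5.91, a difference of -0.69 that was not called (95% interval -1.24 to -0.14, limma adjusted p = 0.0943).

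Cebpa encodes C/EBP alpha, which acts in granulocyte progenitors and also in fat, liver and other tissues. It was at 7.18, 7.20 and 7.18 in the controls and at 7.60, 7.35 and 7.57 in the mutants, all above background. Every mutant array was above every control array, yet the difference of 0.32 was not called (95% interval 0.09 to 0.54, limma adjusted p = 0.0679). Among the 33 genes it had the narrowest range over the controls, 0.02.

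Of 12 genes of secondary and tertiary granules and their stage, 9 fell and 1 rose. Ltf, the lactoferrin gene, had control levels of 9.89, 10.98 and 11.49 and mutant levels of 6.92, 6.71 and 6.07. It fell by 4.22 (SE 0.40, limma adjusted p = 0.00108), and 1 of 3 mutant arrays was above background. Mmp8, the neutrophil collagenase gene, had control levels of 9.69, 10.03 and 10.74 and mutant levels of 6.36, 5.84 and 5.54. It was at least 11.9-fold lower (difference -4.24, SE 0.30, limma adjusted p = 0.000377). For both genes mutant replicate 1 was the highest mutant and replicate 3 the lowest.

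Ngp, which encodes neutrophilic granule protein, a relative of the cathelicidins, kept a signal in the mutants. Its control levels of 11.41, 11.76 and 11.97 lay close together, while its mutant levels of 8.62, 8.23 and 6.97 were spread over 1.65 and were all above background. The difference was -3.77 (SE 0.39, limma adjusted p = 0.00137). Camp, the cathelicidin gene, had the opposite pattern of spread, with controls at 8.40, 9.82 and 10.63 and mutants at 6.61, 6.97 and 6.65, just above their background points. It fell by 2.87 (SE 0.49, limma adjusted p = 0.00909).

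Pglyrp1, a peptidoglycan-binding antibacterial protein, fell from 8.79, 9.63 and 10.47 to 6.30, 5.90 and 5.96, at least 8.31-fold. Trem3, a receptor of the TREM family, was at 8.42, 9.25 and 10.10 in the controls and 5.99, 6.28 and 5.85 in the mutants, at least 6.42-fold lower. In both genes control replicate 3 was the highest, and no array of one group reached the other. Cd177, a neutrophil surface protein stored in granules, was at 7.71, 8.92 and 9.59 against 6.01, 6.03 and 5.83, at least 4.49-fold lower (difference -2.78). Hp, which encodes the haemoglobin-binding haptoglobin and is also a liver gene, was at 7.61, 8.54 and 8.93 against 5.80, 5.50 and 5.61, at least 3.44-fold lower (difference -2.72). Limma adjusted p-values of these 4 genes lay between 0.00139 and 0.00531, and all were at background on the 3 mutant arrays.

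Olfm4 and Itgb2l were led by one control array. Olfm4, olfactomedin 4, which marks a subset of neutrophils, was at 6.85, 7.15 and 9.08 in the controls and 5.28, 5.66 and 5.32 in the mutants. It was at least 2.17-fold lower (difference -2.28, limma adjusted p = 0.027), and leaving out control replicate 2, or any 1 mutant replicate, ended the call (adjusted p up to 0.0966). Itgb2l, an integrin beta chain related to Itgb2, was at 6.03, 6.31 and 7.75 in the controls, above background only in replicate 3, and at 5.64, 5.82 and 5.69 in the mutants. It was not called (difference -0.98, 95% interval -1.91 to -0.06, limma adjusted p = 0.147).

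Lcn2 and Chil1 stood apart from the other granule genes. Lcn2, the lipocalin that binds bacterial siderophores, is made by many cell types besides neutrophils. It had control levels of 11.37, 11.87 and 12.06 and mutant levels of 11.41, 9.04 and 10.14. Mutant replicate 1 lay within the controls, and the difference of -1.57 was not called (95% interval -2.80 to -0.34, limma adjusted p = 0.0912). Without mutant replicate 1 it was -2.18 and called (limma adjusted p = 0.0203).

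Chil1 encodes a chitinase-like glycoprotein that is stored in neutrophil granules and is also secreted by cartilage cells. It was at 10.56, 10.15 and 10.29 in the controls and at 12.09, 10.83 and 11.38 in the mutants, with every mutant above every control. It rose by 1.10 (SE 0.29, limma adjusted p = 0.0443). The call ended without a filter on low values (adjusted p = 0.0523), without control replicate 2 (0.137) or 3 (0.0848), and without mutant replicate 1 (0.0743) or 3 (0.124).

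Of the 9 late-stage genes measured, 8 fell. S100a8 and S100a9 encode the calprotectin subunits, the main cytosolic proteins of neutrophils. S100a8 had levels of 10.09, 10.79 and 11.12 in the controls and 6.74, 6.49 and 6.23 in the mutants. S100a9 had levels of 9.77, 10.60 and 11.10 in the controls and 6.54, 6.20 and 5.86 in the mutants. The pair differed by -4.18 and -4.29 (limma adjusted p of 0.00026 and 0.000485), and each was above background only in mutant replicate 1. Retnlg, a resistin-like cytokine of mature neutrophils, had control levels of 10.79, 11.09 and 11.65. Its mutant levels of 7.56, 7.10 and 6.79 were all above background (difference -4.03, SE 0.26, limma adjusted p = 0.000278).

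Csf3r is the receptor for granulocyte colony-stimulating factor, the main growth factor of the lineage. Its control levels of 8.43, 8.28 and 8.90 were close together, and its mutant levels of 5.69, 5.44 and 5.56 were at background. It was at least 3.89-fold lower (difference -2.97, SE 0.17, limma adjusted p = 0.000243).

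Itgam and Itgb2, the chains of the integrin Mac-1 that monocytes and macrophages also carry, both differed by -1.99 (limma adjusted p of 0.00628 and 0.00609). Itgam was at 8.03, 8.63 and 9.36 against 6.91, 6.67 and 6.47. Itgb2 was at 8.0, 8.70 and 9.27 against 6.99, 6.47 and 6.55, and in both genes mutant replicate 1 was the highest mutant. Trem1, a receptor that amplifies inflammatory signals, differed by -1.99 (limma adjusted p = 0.00521). It was at 8.97, 9.17 and 9.94 in the controls and was still above background in all mutants, at 7.73, 6.89 and 7.49. Alox5, the lipoxygenase that starts leukotriene synthesis, was at 7.74, 8.14 and 8.97 against 6.73, 6.71 and 6.46 and fell by 1.65 (SE 0.28, limma adjusted p = 0.00957). All 4 genes had every mutant below every control. Above background were 1 of 3 mutant arrays for Itgam and for Alox5, and 2 of 3 for Itgb2.

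Padi4, the deiminase that citrullinates histones in neutrophil extracellular traps, was the late-stage gene that was not called. Its control levels were 6.51, 7.03 and 7.09, and its mutant levels of 6.48, 6.67 and 6.37 were at background and overlapped with them. The difference was -0.37 (95% interval -0.76 to 0.02, limma adjusted p = 0.191).

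All 3 subunits of the NADPH oxidase in the set fell. Cybb, the catalytic subunit gp91phox, which macrophages also express, was at 9.30, 10.23 and 10.93 in the controls. In the mutants it was at 8.33, 7.60 and 7.68, all above background (difference -2.29, SE 0.39, limma adjusted p = 0.00946). Ncf1, the organising subunit p47phox, was at 8.21, 8.85 and 9.65 against 6.50, 6.29 and 6.27 and fell by 2.55. Of its mutant arrays, 1 of 3 was above background. Ncf4, the phosphoinositide-binding subunit p40phox, was at 7.20, 7.55 and 8.26 against 6.16, 5.86 and 5.80, at least 2.14-fold lower (difference -1.73). Limma adjusted p-values were 0.00281 for Ncf1 and 0.00523 for Ncf4.

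**Figure D2:**
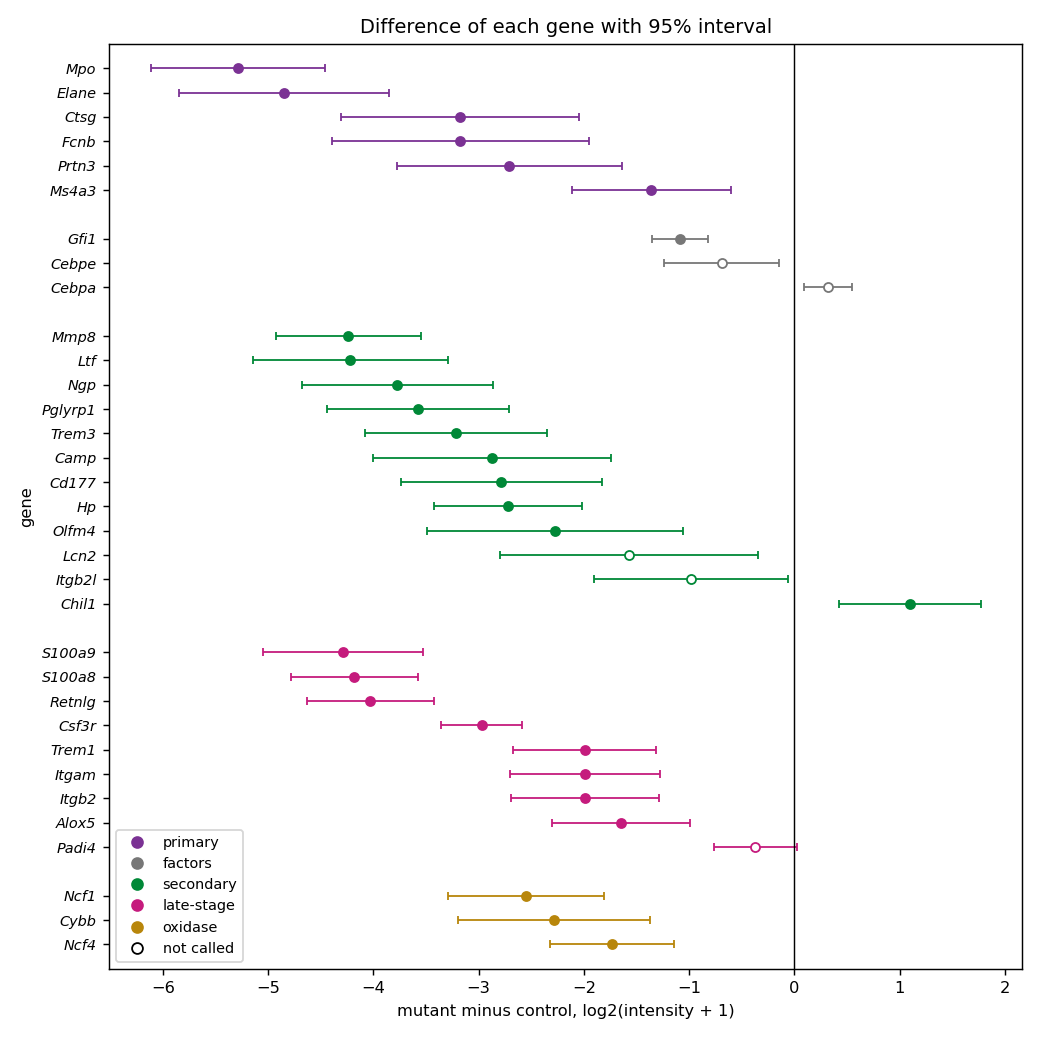
Mutant minus control difference of each gene on the log2(intensity + 1) scale with its 95% interval from the limma fit, coloured by class; open symbols were not called. Mpo lies at -5.29 and Elane at -4.85, the 5 open symbols are Cebpe, Cebpa, Lcn2, Itgb2l and Padi4, and Chil1 at 1.10 is the called gene to the right of 0.

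Set side by side, the classes had medians of -3.18 (primary), -2.83 (secondary and tertiary), -1.99 (late-stage), -2.29 (oxidase) and -0.69 (transcription factors), against 0.03 over all genes tested. No test was made between classes, whose genes share their arrays, and the background limits the decreases of all primary genes. With the 18 genes at background in the mutants set to their bounds, the medians were -2.12, -2.42, -1.99, -2.29 and -0.10 in the same order, so the primary genes no longer had the lowest one. Over all 33 genes it was then -1.99. Above background on all 3 mutant arrays were 0 of 6 primary genes, 4 of 12 secondary and tertiary genes (Camp, Ngp, Lcn2 and Chil1), 2 of 9 late-stage genes (Retnlg and Trem1), 1 of 3 oxidase genes (Cybb) and 1 of 3 factors (Cebpa). On all 3 control arrays the numbers were 6, 11, 9, 3 and 2. The medians also depended on which controls were used. With control replicate 1 as the single control they were -1.92 for primary, -1.87 for secondary and tertiary, -1.60 for late-stage, -1.43 for oxidase genes and -0.21 for the factors. With Mmp8 counted as a late-stage gene, that class had a median of -2.48.

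The control arrays lay far apart for the granule genes. The median range over the 3 controls was 2.00 for primary genes, 1.64 for secondary and tertiary genes, 1.44 for oxidase genes, 1.03 for late-stage genes and 0.33 for the factors, against 0.30 over all genes tested. Control replicate 3 was the highest control for 31 of the 33 genes, against 44.4% of all genes tested, and replicate 1 was the lowest for 31. The exceptions for replicate 3 were Cebpa and Chil1. Averaged over the primary genes, replicate 1 lay at -1.08 and replicate 3 at 0.84 from the mean of the controls. Over the late-stage genes these deviations were -0.49 and 0.52. Mpo spanned 1.52 over the controls and Fcnb 2.41, while Retnlg spanned 0.86, Csf3r 0.63 and Ngp 0.56.

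Among the mutants the order was different. The median range over the 3 mutants was 0.35 for primary genes, which lay at background, 0.41 for secondary and tertiary and 0.51 for late-stage genes. Mutant replicate 1 was the highest mutant for 8 of 9 late-stage genes, 3 of 3 oxidase genes, 7 of 12 secondary and tertiary genes and 2 of 6 primary genes, against 35.0% of all genes tested. At background on all mutant arrays were 2 late-stage, 1 oxidase, 7 secondary and tertiary and all 6 primary genes. The order of arrays at background is not informative, so these counts do not compare the classes. Ngp (1.65), Lcn2 (2.37) and Chil1 (1.26) had the widest ranges. Macrophage markers moved with this: mutant replicate 1 was the highest mutant for 9 of 10 of them, and their mean level was 8.36 there against 7.97 and 7.91 in replicates 2 and 3. The part of macrophages in the late-stage and oxidase values was not tested.

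**Figure D3:**
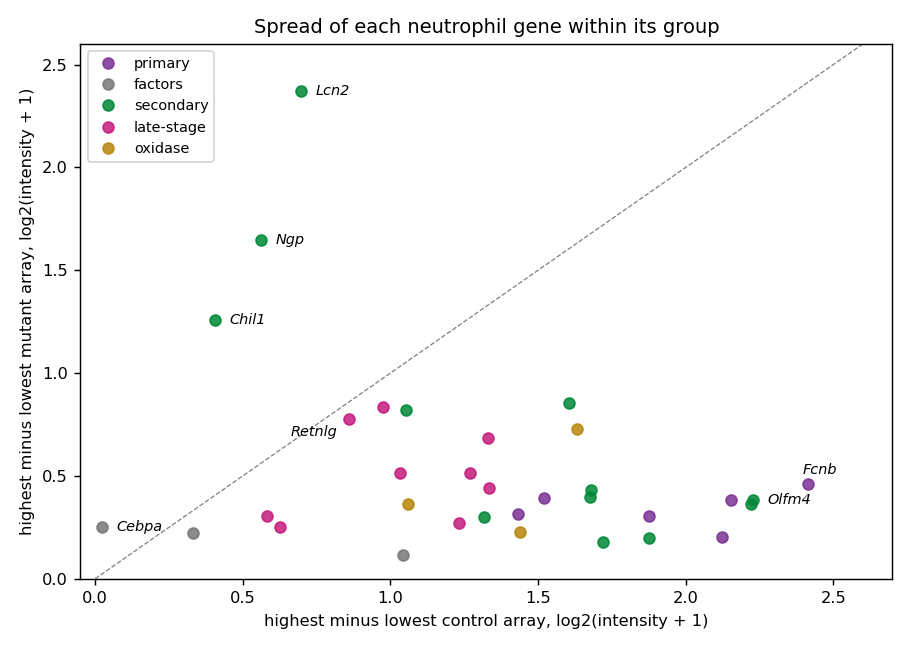
Range over the 3 control arrays (horizontal) against range over the 3 mutant arrays (vertical) of each of the 33 genes, both in log2(intensity + 1) and coloured by class; the dashed line marks equal ranges. Fcnb reaches 2.41 on the control axis, Lcn2, Ngp and Chil1 lie above the line at 2.37, 1.65 and 1.26 on the mutant axis, and Cebpa has a control range of 0.02.

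Genes outside the set that belong to the same biology were mostly lower too. Of 71 tested genes in 6 further lists, also chosen with earlier results known, 40 fell and 5 rose, with a median difference of -0.98. Of these 71 genes, 8 had a mutant mean below the filter line and passed it through the controls. The first count was 24 without mutant replicate 3, and the second was 3 with the replicate number as a block and without control replicate 2 or any 1 of the mutant replicates. Of 21 tested genes for other granule and cytosolic cargo, 12 fell. The most negative fitted differences were those of Chil3 (-3.49), a chitinase-like protein, the histidine decarboxylase gene Hdc (-3.21), the arginase gene Arg2 (-2.40) and Mcemp1 (-2.26). Of these, Chil3, Arg2 and Mcemp1 were at background on all mutant arrays, at least 5.24-fold, 3.00-fold and 1.70-fold lower. Hdc was above background on 1 of 3 mutant arrays. Ptx3, a pentraxin that many stromal cells make, was the member of that list that rose (1.00, limma adjusted p = 0.038) and was singled out after its value was seen. It was above background on 1 of 3 controls and on all mutant arrays.

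Of 20 tested genes for other chemotaxis and adhesion receptors, 15 fell and 0 rose. Cxcr2, the receptor for the chemokines that recruit neutrophils, was at least 5.19-fold lower (difference -3.98, SE 0.18, limma adjusted p = 0.000173). Ly6g, the surface antigen used to identify mouse neutrophils, was at least 5.27-fold lower (difference -3.83, SE 0.39, limma adjusted p = 0.00131). Il1r2, a decoy receptor for interleukin-1, was at least 5.72-fold lower (difference -3.22, limma adjusted p = 0.00032). These 3 genes were above background on all controls and on no mutant array, and Cxcr2 and Ly6g passed the filter on low values through the controls. The difference of Clec4e, a lectin receptor, was -2.84 (limma adjusted p = 0.000581), with 1 of 3 mutant arrays above background.

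Of 12 genes listed as other myeloid transcription factors, 7 fell and 1 rose. Lbr (-1.54, limma adjusted p = 0.0162), 1 of the 7, encodes the lamin B receptor and is not a transcription factor. The factors with the most negative fitted differences were Myb (-3.13), a factor of haematopoietic progenitors, Ikzf1 (-2.82), the lymphoid and myeloid regulator Ikaros, Nfe2 (-2.30), known from erythroid cells and platelets, and Mxd1 (-2.19), an antagonist of MYC in maturing cells. Of these, Myb, Ikzf1 and Nfe2 were at background on all mutant arrays, at least 4.12-fold, 3.32-fold and 2.23-fold lower. Several of these also act in other blood lineages. Cebpd, a C/EBP factor of acute responses in many tissues, rose by 1.01 (SE 0.11, limma adjusted p = 0.00172) and was singled out after its value was seen.

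Of the other oxidase genes, Rac2, the haematopoietic GTPase that activates the complex, fell by 2.51 (SE 0.32, limma adjusted p = 0.00304). Cybc1 (-0.41) fell and the widely expressed Rac1 (0.29) rose, both near the threshold (limma adjusted p of 0.0497 and 0.0495). Cyba, the partner of Cybb, differed by -0.79 and was not called (limma adjusted p = 0.124); it was singled out after its value was seen. In leukotriene synthesis 3 of 5 genes fell: Alox5ap (-2.18), the partner of Alox5, Alox15 (-1.22, at background on all mutant arrays and at least 1.85-fold lower) and Lta4h (-0.79).

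Of 9 granulopoietic cytokines and chemokines, 1 fell and 2 rose. Cxcl2, a ligand of Cxcr2, fell by 2.40 (SE 0.28, limma adjusted p = 0.00202) and was above background in all controls and 1 of 3 mutants. Il6, the interleukin-6 gene, rose by 1.80 (SE 0.32, limma adjusted p = 0.0107) and was above background in 1 of 3 controls and all mutants. Kitl, the stem cell factor gene, rose by 0.86 (SE 0.11, limma adjusted p = 0.00362) and was above background in 0 of 3 controls and 2 of 3 mutants. Csf3, which encodes granulocyte colony-stimulating factor, was at background on all arrays and differed by -0.25 (limma adjusted p = 0.284). It too was singled out after its value was seen.

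Several lists of other blood cell markers, also chosen with earlier results known, were lower in the mutants, and others were not. The mean level of 7 erythroid genes was 7.77, 9.10 and 10.18 in control replicates 1, 2 and 3 and 5.41 to 5.66 in the mutants, and all 7 fell. They included Slc4a1, the red cell anion exchanger, at least 17.2-fold lower. All 7 were at background on the mutant arrays, and 4 of them passed the filter on low values through the controls. Eosinophil genes, of which 3 of 3 tested fell, had a mean of 7.0, 7.36 and 8.33 in the controls and 5.37 to 5.44 in the mutants, with Prg2, the major basic protein, at least 8.03-fold lower. B lymphoid genes had a mean of 7.58, 7.59 and 8.28 in the controls and 5.83 to 6.06 in the mutants, and 7 of 9 fell, with Cd79b at -3.57. Cd79b was above background on 2 of 3 mutant arrays. Of 5 megakaryocyte genes 2 fell, with Ppbp at least 10.9-fold lower. The filter was passed through the controls by 2 of the 3 eosinophil, 3 of the 9 B lymphoid and 1 of the 5 megakaryocyte genes. Of 4 tested T lymphoid genes 0 fell and 0 rose by limma, and 2 had an unadjusted p under 0.05 (Cd3g at -0.49 and Cd4 at 0.75). The 5 T lymphoid genes measured had means of 6.07 to 6.51 in the controls and 6.25 to 6.44 in the mutants. Of these 5, 0 were above background on all 3 controls, which limits how far a decrease could show. Cd3g was at background on all arrays of both groups. Of 5 tested basophil and mast cell genes 1 fell, Prss34, at least 1.42-fold, while Cpa3 (0.62) and Mcpt4 (0.42) had differences above 0 and were not called.

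Macrophage genes went the other way. Of 10 macrophage genes 7 rose and 0 fell, with Mrc1, the mannose receptor, at 0.98 (SE 0.22, limma adjusted p = 0.0244), and the mean level was 7.34 to 7.63 in the controls and 7.91 to 8.36 in the mutants. Mrc1 was above background on 1 of 3 controls and on all mutant arrays. Of 5 monocyte genes 1 fell, Cd14 (-1.22, limma adjusted p = 0.0443), with means of 7.78 to 8.33 and 7.69 to 8.03. Osteoclast means were 6.74 to 7.05 in the controls and 7.18 to 7.28 in the mutants, with 2 of 8 genes higher and 1 lower. The largest fitted change there was that of Atp6v0d2, a proton pump subunit (1.54). It was at background on all controls and above it on all mutants, so this difference is against a level that was not measured. The 10 chondrocyte genes had means of 11.71 to 11.85 and 11.61 to 11.72, and 1 of them, Col10a1, the hypertrophic collagen gene, fell (-0.50). Of 6 genes of fibrous tissue and tendon 5 rose, of 6 endothelial genes 4 and of 5 osteoblast genes 1. In these 3 lists 0 genes fell, and the median differences were 1.36, 0.95 and 0.01. Their largest called differences were those of Postn (3.51), Emcn (1.47) and Col1a1 (1.91). The part of these other cell types in the neutrophil values was not tested.

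**Figure D4:**
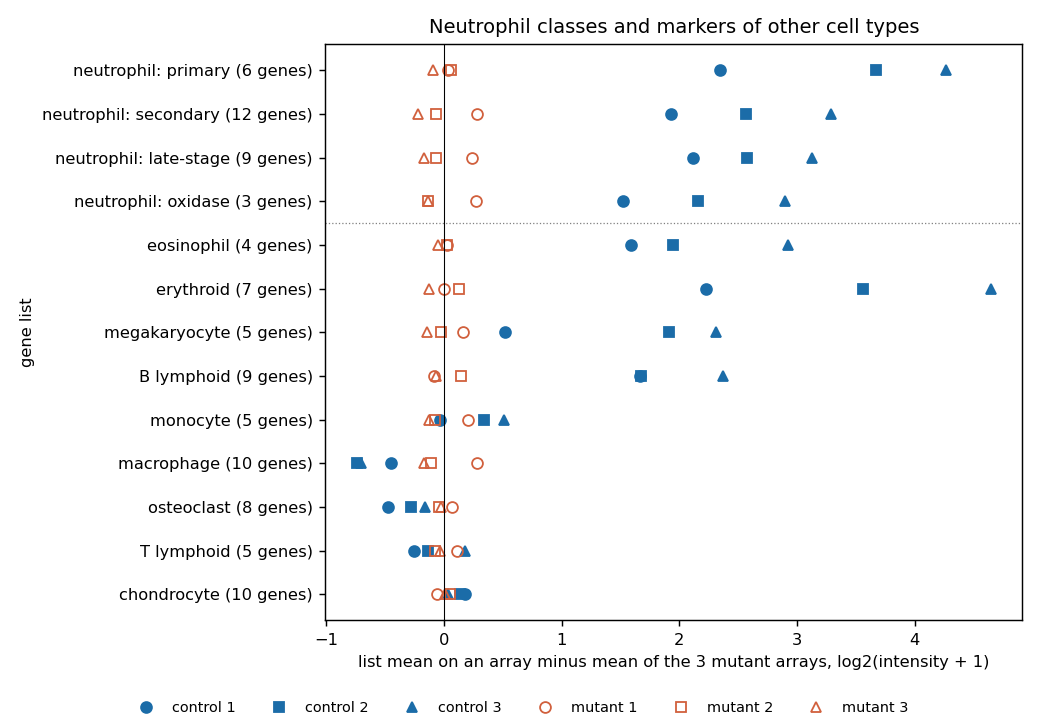
Mean of each gene list on each array minus the mean of that list over the 3 mutant arrays, in log2(intensity + 1), for 4 neutrophil classes (above the dotted line) and markers of other cell types; filled symbols are controls and open symbols mutants. Neutrophil, eosinophil, erythroid and B lymphoid lists lie to the right in all controls, with control replicate 3 the farthest, while the macrophage list lies to the left in the controls and the chondrocyte list stays near 0.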

How the data were processed

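Total RNA (300 ng per sample, per the labels' protocols) was hybridised to 1 single-channel Affymetrix array per sample. All values come from the table of intensities deposited by the authors, 35512 probe sets on a linear scale from 0.74 to 9001. Their summary, background correction and normalisation are not given in the sources used here.

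Annotation named 1 gene for 21789 probe sets, several for 1621 and none for 12102, and symbols were updated to RefSeq by gene number (21698 matched). After log2(intensity + 1), a filter removed probe sets whose mean lay in the lowest 25% (below 5.56), and the probe set with the highest mean stood for its gene. Groups were compared by limma 3.58.1 (R 4.3.3, two-sided, tested on simulated data), with all 17020 genes in the Benjamini-Hochberg adjustment and calls at 0.05.

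The members, classes and lists were chosen with earlier results of these data known. Named genes are all members, up to 4 called genes with the largest difference per pathway list, and the called gene with the largest difference per cell type list. Other genes are marked where named, except Cd3g, Cd4, Cpa3 and Mcpt4, which were also singled out after their values were seen. Lbr is named because the label of its list does not apply to it. Fibrous tissue, endothelial and osteoblast lists had 5, 4 and 1 genes higher and 0 lower. Alternatives were other normalisations, filters, probe set rules, variance models and pseudocounts, a replicate block, other classes and arrays left out.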

Additional observations from a re-analysis of the deposited data

How the results depend on the processing

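Neither group had enough arrays to test for an outlying sample. In every alternative fit of the 33 genes, including each array left out, no gene changed direction, and the number called lower lay between 25 and 30 with 1 array left out. Ms4a3, Olfm4 and Chil1 are the genes that lost their call in any fit that tested them. With the replicate number as a block, all 28 calls were shared with the fit without it, and the further pathway genes called higher were 3 in place of 5. Deviations of same-numbered arrays correlated at 0.08, 0.21 and -0.08, and those of other pairs of a control and a mutant at -0.18 to 0.11. With 3 arrays per group these values cannot decide whether same-numbered arrays share more than a number.

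With 1 array left out, the genes called ranged from 512 to 1642 (higher) and 424 to 1640 (lower), the set's genes called higher from 0 to 1, and the pathway genes called from 3 to 4 (higher) and 24 to 48 (lower). Class medians then ranged from -3.80 to -2.66 (primary), -3.39 to -2.41 (secondary and tertiary), -2.32 to -1.70 (late-stage), -2.71 to -1.90 (oxidase), -0.93 to -0.41 (factors) and -3.02 to -2.22 (all 33). Without control replicates 2 and 3 they were -1.92, -1.87, -1.60, -1.43, -0.21 and -1.66 in the same order, with no test. With Mmp8 in the late-stage class its median was -2.48. Array weights, whose fit did not converge, called 4406 genes higher and 3600 lower, 2 of the set's and 8 pathway genes higher. Without a filter 0 of the set's genes were called higher. A filter at the median left Cebpa as the only factor tested, so the factors' median was 0.32. At the 99% point of the olfactory receptor probe sets, 4 genes (Cebpa, Lcn2, Chil1 and Cybb) in place of 8 were above background in all mutants.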
